A study of Arabidopsis thaliana with 6 samples.

Results

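The genes described here encode ion transporters and calcium signalling proteins of *Arabidopsis thaliana*, picked by name from 11 families: CHX, CNGC, GLR, ACA, AHA, NHX, CAX, CPK, CIPK, CBL and CML. A gene was a member if its symbol began with one of these names followed by a digit and if a probe set, a group of short array probes, was annotated to that gene alone. This gave 20 genes of the 13356 with such a probe set, each read by 1 probe set. They came from 3 families: 6 CHX, 7 GLR and 7 CML genes. The RefSeq gene table holds 158 symbols of this form, and the other 138, among them all those of the 8 remaining families, were not analysed here. The families differed in how much of each was measured: 6 of 22 CHX, 7 of 18 GLR and 7 of 8 CML symbols.

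Expression was measured in inflorescences, which hold buds and flowers of many stages, of the mutant *top1α-2* (3 arrays) and of the wild type (3 arrays). Both genotypes are of the accession Landsberg erecta and were grown at 23°C in continuous light. The mutation of *top1α-2* lies in *TOP1α*, whose product, a DNA topoisomerase, relaxes supercoiled DNA. The replicates are described as biological, while plant numbers and age at harvest are not stated in the labels. The probe set of the mutated gene is unnamed here, so its level gave no check of the labels. Genotype was taken from the genotype label, and the titles of the mutant arrays carry the name Trp1 instead, which the labels do not explain.

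CHX proteins exchange potassium or other monovalent cations for protons, mostly across inner membranes, and many of their genes are known from pollen. GLR proteins are channels related to the glutamate receptors of animal nerve cells, and they let calcium into plant cells in response to amino acids, wounding or elicitors of immunity. CML proteins resemble calmodulin: they bind calcium through EF-hand motifs and pass a calcium signal on to other proteins. Ion fluxes and calcium are known to steer the growth of pollen tubes, the opening of stomata and the response to wounding.

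In *top1α-2* inflorescences 5 of the 20 genes fell and 0 rose (limma, adjusted p under 0.05 over all probe sets). Those that fell were the CHX genes *CHX15*, *CHX19* and *CHX6B* and the CML genes *CML23* and *CML42*. For *CHX15*, *CHX19*, *CML23* and *CML42* the decrease was 2.40-fold to 4.23-fold. The sizes for *CHX6B* and *CHX15* depended most on how low signals were treated. With a pseudocount of 16, which damps low-signal differences, *CHX6B* moved from a log2 change of −2.81 to −1.51 and *CHX15* from −2.08 to −1.62. None of the 7 GLR genes was called in either direction. Over all 22746 probe sets, 5.86% were called lower and 3.4% higher. At an unadjusted p under 0.05 the count was 6 lower and 0 higher, against 12.4% and 10.9% of all probe sets. After median centring the same 5 lower and 0 higher calls were counted, while over all probe sets 1153 were called higher and 1167 lower, in place of 773 and 1334.

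Most of these transcripts gave weak signals. Of the 20 probe sets, 16 had a mean log2 MAS5 signal below that of the middle probe set of the array and 5 in its dimmest 10%. Those 5, for *CHX16*, *CHX21*, *CML37*, *GLR2.7* and *GLR2.9*, had standard errors of 0.83 to 1.45 on the log2 scale, against 0.14 to 0.80 for the other 15. The 95% interval of the log2 change of each of these 5 genes held decreases as well as increases. Presence or absence of a transcript was not called, and a dim signal does not show absence.

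**Figure D1:**
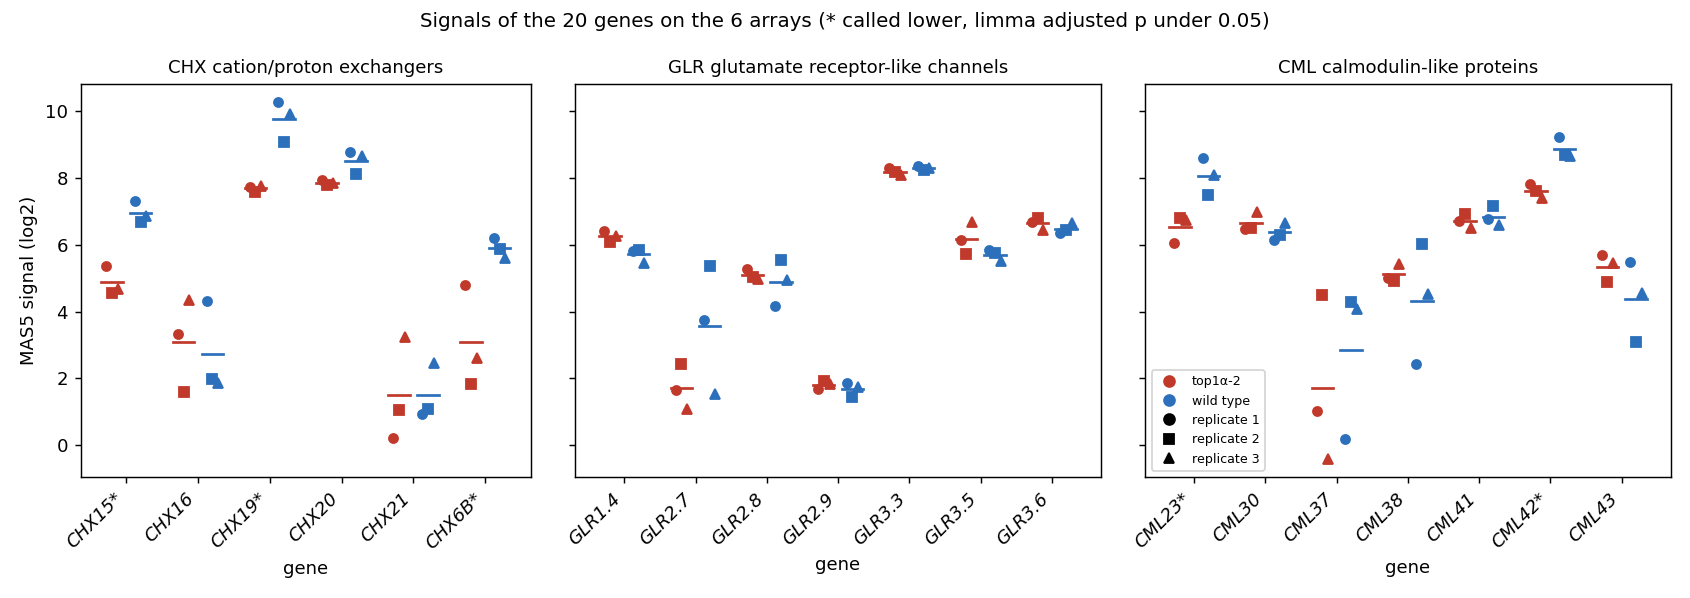
MAS5 signal (log2, vertical axis) of each of the 20 genes, in 3 panels by family, with *top1α-2* in red left of the wild type in blue. Each point is 1 array, its shape gives the replicate number, and the short line is the mean of 3 arrays. The 5 genes marked with a star have all *top1α-2* points below all wild-type points, and the dim genes *CML37* and *GLR2.7* scatter over several log2 units within a genotype.

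The CHX genes held the strongest decreases. *CHX19*, one of the exchangers placed in endomembranes, was the brightest CHX probe set, with signals of 7.73, 7.58 and 7.77 in *top1α-2* and 10.29, 9.07 and 9.91 in the wild type (log2, replicates 1, 2 and 3). The 3 mutant arrays lay close together and well below the lowest wild-type array, while the wild-type arrays spread over more than a log2 unit. The means were 7.69 ± 0.10 in *top1α-2*, against 9.76 ± 0.62 in wild type (SD, n = 3 each), a log2 change of −2.06 with a standard error of 0.25 and a limma adjusted p of 0.000583. This is a 4.18-fold lower signal, and 479 of all probe sets had a lower log2 change.

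*CHX15* gave signals of 5.37, 4.57 and 4.68 in *top1α-2* and 7.32, 6.69 and 6.85 in the wild type. The genotypes did not overlap, and replicate 1 was the highest array within each. Its means were 4.87 ± 0.43 in *top1α-2*, against 6.95 ± 0.33 in wild type (SD, n = 3 each). The log2 change was −2.08 with a standard error of 0.37 and a limma adjusted p of 0.00525, or 4.23-fold lower. Its mean signal was brighter than that of 30.1% of probe sets, so this decrease was measured at a low signal.

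*CHX6B* had signals of 4.80, 1.84 and 2.62 in *top1α-2* and 6.21, 5.87 and 5.62 in the wild type. The genotypes did not overlap, but the mutant arrays, near the low end of the scale, had an SD of 1.53, and the wild-type arrays had one of 0.30. Its log2 change was −2.81, with a standard error of 0.74, a 95% interval of −4.46 to −1.17 and a limma adjusted p of 0.0404. With a pseudocount of 16, which damps differences at low signal, the change was −1.51, against −1.98 for *CHX19* and −1.62 for *CHX15*. The call was lost without any 1 array other than *top1α-2* replicate 1: the limma adjusted p was 0.106 and 0.114 without *top1α-2* replicates 2 and 3, and 0.119, 0.0811 and 0.0954 without wild-type replicates 1, 2 and 3. Without *top1α-2* replicate 1 it was 0.00875 at a log2 change of −3.67.

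*CHX20*, known from guard cells, where it acts in the opening of stomata, had signals of 7.93, 7.79 and 7.84 in *top1α-2* and 8.79, 8.11 and 8.65 in the wild type. The groups did not overlap, and wild-type replicate 2 lay nearest to the mutant arrays. The log2 change was −0.66 with a standard error of 0.19 and a limma adjusted p of 0.0514, just outside the threshold. Without wild-type replicate 2 the change was −0.87 with a limma adjusted p of 0.00642, and with the dimmest 50% of probe sets left out the adjusted p was 0.0379. Its 95% interval, −1.08 to −0.25, lay above that of *CHX19*, −2.63 to −1.50; the difference between these changes was not tested.

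The remaining CHX genes were too dim for a comparison. *CHX16*, a relative of *CHX19*, had signals of 3.34, 1.60 and 4.34 in *top1α-2* and 4.31, 1.99 and 1.87 in the wild type, with a 95% interval of the log2 change from −1.81 to 2.55. *CHX21*, which is known to act with *CHX23* in guiding pollen tubes, had 0.22, 1.06 and 3.25 in *top1α-2* and 0.94, 1.10 and 2.47 in the wild type. The genotypes overlapped in both genes. The interval of *CHX21*, −2.37 to 2.38, would hold a decrease as large as that of *CHX19* or *CHX15*.

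As a family the 6 CHX genes had 3 lower calls, 0 higher calls and a median log2 change of −1.36, beside a median of 0.00 over all probe sets. The median of the 6 signals on each array was 5.08, 3.21 and 4.51 in *top1α-2* and 6.77, 6.28 and 6.23 in the wild type, without overlap. On every array except *top1α-2* replicate 3 this median was the midpoint of *CHX15* and *CHX6B*, both called lower. Its separation thus repeats their decreases and does not describe the other CHX genes. A gene outside the symbol rule, *chx28*, whose symbol is written in small letters, was looked up after the values had been seen. It had signals of 2.40, 1.19 and 1.12 in *top1α-2* and 5.91, 4.56 and 5.20 in the wild type, a log2 change of −3.65 with a standard error of 0.72 and a limma adjusted p of 0.00946. Its mutant signals were as low as those of *CHX21* and were not shown to lie above background, so the size of the change is uncertain, and with a pseudocount of 16 it was −1.50. With it the family had 4 lower calls of 7 and a median of −2.06.

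**Figure D2:**
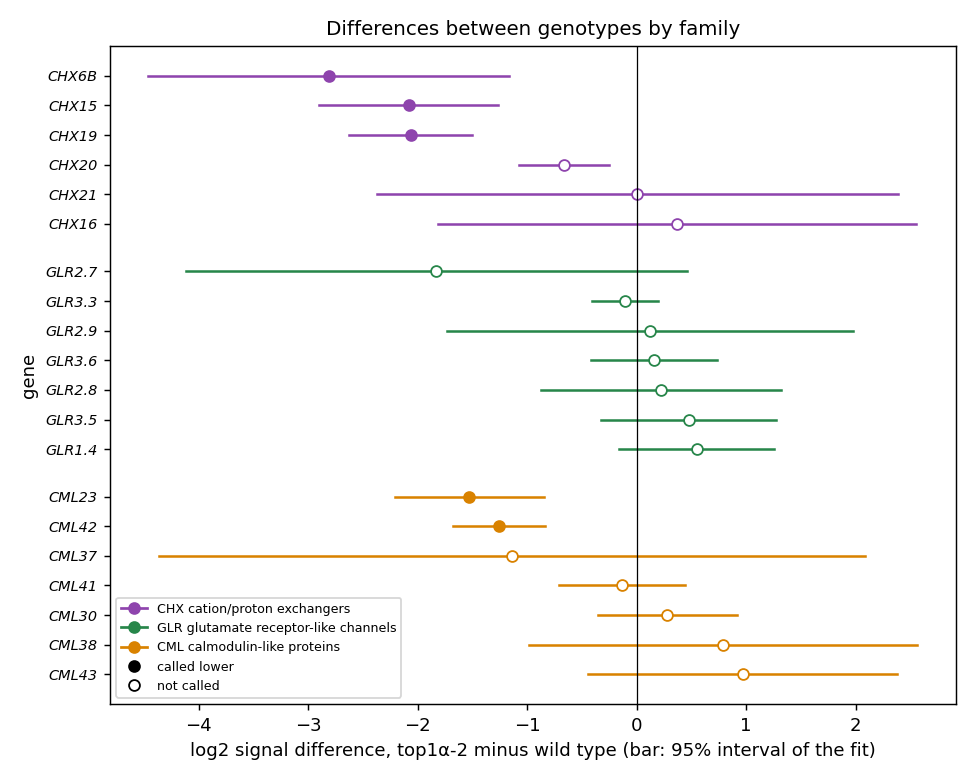
Log2 signal difference, *top1α-2* minus wild type (horizontal axis), of the 20 genes, ordered by change within each family. Bars are 95% intervals of the limma fit over 3 arrays per genotype, filled points are genes called lower and open points are genes not called. *CHX19* and *CML42* combine a large decrease with a narrow interval, and the intervals of all 7 GLR genes cover 0.

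Among the CML genes, *CML42* and *CML23* fell. *CML42*, known for a role in the branching of trichomes (leaf hairs) and in the defence against herbivores, had signals of 7.81, 7.60 and 7.40 in *top1α-2* and 9.24, 8.69 and 8.66 in the wild type. The genotypes did not overlap, and replicate 1 was the highest array within each. Its means were 7.60 ± 0.21 in *top1α-2*, against 8.86 ± 0.33 in wild type (SD, n = 3 each), a log2 change of −1.26 with a standard error of 0.19 and a limma adjusted p of 0.00201. This was a 2.40-fold lower signal.

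*CML23*, linked with a close relative to nitric oxide levels and flowering time, had signals of 6.07, 6.79 and 6.73 in *top1α-2* and 8.59, 7.49 and 8.09 in the wild type. The groups did not overlap, with wild-type replicate 2 the lowest of its genotype. The means were 6.53 ± 0.40 in *top1α-2*, against 8.06 ± 0.55 in wild type (SD, n = 3 each). The log2 change was −1.53 with a standard error of 0.31 and a limma adjusted p of 0.0104, or 2.88-fold lower. The call was lost with a variance prior without a trend on the signal, at an adjusted p of 0.0875.

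The other 5 CML genes were not called. *CML41*, a protein of plasmodesmata in the response to bacteria, had 6.72, 6.92 and 6.49 in *top1α-2* and 6.76, 7.17 and 6.60 in the wild type, with a 95% interval of the log2 change from −0.71 to 0.44. *CML30*, placed in mitochondria, had 6.47, 6.50 and 6.98 in *top1α-2* and 6.15, 6.30 and 6.66 in the wild type, with an interval from −0.35 to 0.91. For these genes decreases as large as those of *CML42* and *CML23* lay outside the interval.

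*CML43*, the close relative of *CML42*, had 5.69, 4.89 and 5.46 in *top1α-2* and 5.5, 3.08 and 4.56 in the wild type. The groups overlapped through wild-type replicate 1, and the log2 change of 0.97 had an interval of −0.44 to 2.38 and a limma adjusted p of 0.408. The intervals of *CML42*, −1.68 to −0.84, and *CML43* did not overlap, and the difference between them was not tested. *CML38*, known from the response to low oxygen, had 5.0, 4.92 and 5.43 in *top1α-2* and 2.43, 6.02 and 4.53 in the wild type, so the wild-type arrays enclosed all mutant arrays. *CML37*, known from wounding and drought, ranged from −0.41 to 4.51 in *top1α-2* and from 0.18 to 4.30 in the wild type, the widest scatter of the 20 genes.

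As a family the 7 CML genes had 2 lower calls, 0 higher calls and a median log2 change of −0.13. The array medians were 6.07, 6.50 and 6.49 in *top1α-2* and 6.15, 6.30 and 6.60 in the wild type, and they overlapped. AT1G76640, for which the gene table gives *CML39* as a synonym, is next to *CML38* in locus order and had 1.28, 1.00 and 1.85 in *top1α-2* and 1.13, 3.2 and 2.44 in the wild type. The table gives that synonym for *CML37* as well, so the name does not settle which gene is meant.

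The GLR genes had no call in either direction. A positive difference was seen in 5 of 7, while 50.5% of all probe sets had a negative one, and so few genes do not show a tendency. *GLR3.3* and *GLR3.6* encode channels that carry the electrical signal from wounded leaves to other leaves. *GLR3.3* was the brightest, at 8.30, 8.18 and 8.10 in *top1α-2* and 8.35, 8.24 and 8.30 in the wild type, and its log2 change of −0.10 had a 95% interval of −0.40 to 0.20. This was the narrowest interval of the 20 genes, and a 2.40-fold decrease like that of *CML42* lay outside it. *GLR3.6* had 6.69, 6.80 and 6.44 in *top1α-2* and 6.35, 6.45 and 6.66 in the wild type, with an interval of −0.42 to 0.73.

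*GLR1.4*, which forms a channel opened by amino acids when made in *Xenopus* oocytes, was the only member with *top1α-2* signals all above those of the wild type. It had 6.41, 6.10 and 6.27 in *top1α-2* and 5.83, 5.86 and 5.45 in the wild type, a log2 change of 0.55 with a standard error of 0.32 and a limma adjusted p of 0.348. Of all probe sets, 13.7% were separated in this way with *top1α-2* higher, and 14.5% with *top1α-2* lower. Among the 20 genes the counts were 1 and 6. *GLR3.5* had 6.15, 5.72 and 6.68 in *top1α-2* and 5.85, 5.77 and 5.51 in the wild type, with overlap and a limma adjusted p of 0.484.

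*GLR2.7*, *GLR2.8* and *GLR2.9* are neighbours on the chromosome in locus order, and their channels take part in calcium influx after contact with microbes. *GLR2.8* had 5.29, 5.04 and 4.99 in *top1α-2* and 4.16, 5.56 and 4.94 in the wild type. *GLR2.7* had 1.66, 2.44 and 1.09 in *top1α-2* and 3.76, 5.38 and 1.54 in the wild type, a log2 change of −1.83 with an interval of −4.12 to 0.46. *GLR2.9* stayed between 1.46 and 1.92 on all 6 arrays. The groups overlapped in each of the 3 genes. Probe sets of such close relatives can share signal, which was not tested. *ATGLR1.2*, left out by the rule through its prefix, encodes a calcium channel of pollen tubes, and had 5.36, 6.08 and 5.73 in *top1α-2* and 6.07, 5.79 and 5.59 in the wild type. Its limma adjusted p was 0.914, with an interval of the log2 change from −0.90 to 0.71.

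For the GLR family the median log2 change was 0.16, and array medians were 6.15, 5.72 and 6.27 in *top1α-2* and 5.83, 5.77 and 5.45 in the wild type. Set side by side, 3 of 6 CHX, 2 of 7 CML and 0 of 7 GLR genes fell, beside 5.86% of all probe sets. Their median log2 changes were −1.36, −0.13 and 0.16, and the CHX median was the midpoint of *CHX19* and *CHX20*. The medians also hold the 5 genes in the dimmest 10% of probe sets. Over all 20 genes the median was −0.05, with 10 positive and 10 negative differences, and it turned to 0.045 after median centring and 0.123 after quantile normalization. The CML median turned to 0.005 after quantile normalization and to 0.03 without wild-type replicate 2. The difference between families was not tested, because the genes were chosen by name and the families held few measured members. In signal the families covered similar ranges: genotype means ran from 1.51 to 7.85 for CHX, 1.73 to 8.19 for GLR and 1.71 to 7.60 for CML genes in *top1α-2*, and from 1.5 to 9.76, 1.70 to 8.30 and 2.85 to 8.86 in the wild type. Probes differ between genes, so these ranges do not order the amounts of the transcripts.

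**Figure D3:**
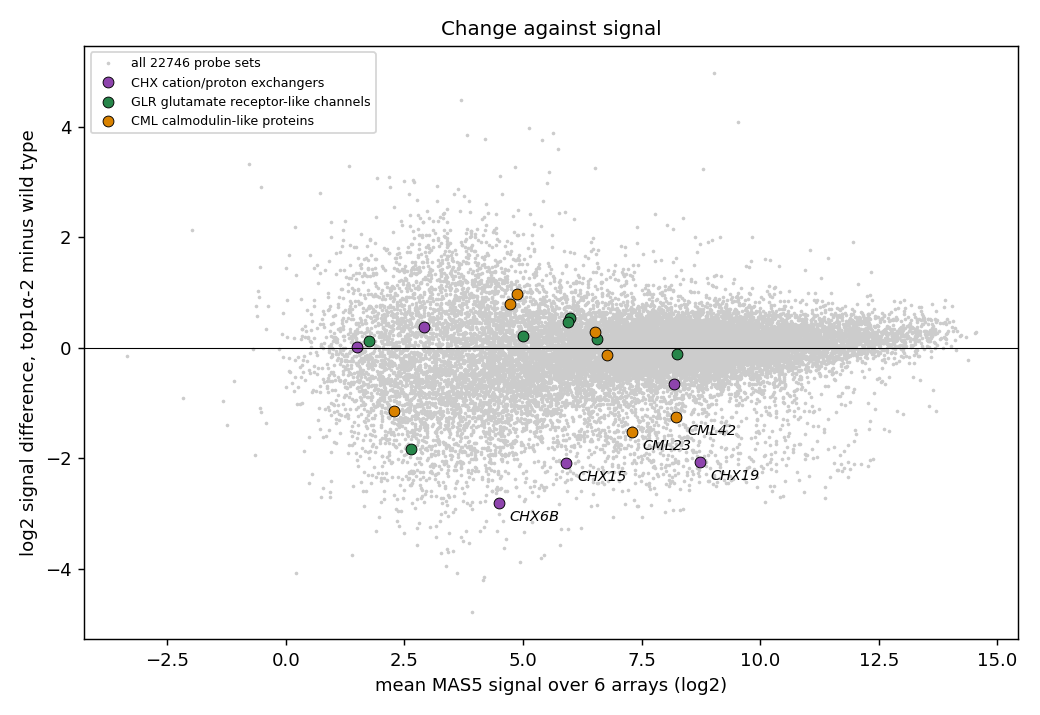
Log2 signal difference, *top1α-2* minus wild type (vertical axis), against the mean log2 MAS5 signal over 6 arrays (horizontal axis). Grey points are all 22746 probe sets and coloured points are the 20 genes by family, with the 5 called genes named. *CHX19*, *CML42* and *CML23* lie toward the lower edge of the grey points at medium signal, and most other members lie at lower signal.

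Markers of pollen, chosen with their changes on these arrays known, were also lower in *top1α-2*. A list of 14 pollen genes, such as the LIM protein genes *PLIM2a* and *PLIM2b* and the pectate lyase gene *AT59*, had 14 lower calls of 14 and a median log2 change of −1.85. Its summed signal, unlogged, was 3584 to 4047 in *top1α-2* and 9009 to 14111 in the wild type, and no gene of the list was below a log2 signal of 4.47 on any array. Of 6 genes of the anther and tapetum, the cell layer that feeds pollen, 5 were lower and 0 higher, with summed signals of 7617 to 10187 in *top1α-2* and 17902 to 20664 in the wild type. In the other direction, 4 of 5 photosynthesis genes were higher, with summed signals of 32486 to 39053 in *top1α-2* and 19069 to 26452 in the wild type, as were 4 of 4 cell division genes, with 1356 to 1441 in *top1α-2* and 907 to 964 in the wild type. Of the flower patterning genes *SPT* and *UFO*, 0 of 2 were called, and *SPT* had means of 8.16 in *top1α-2* and 8.06 in the wild type. All these marker lists were drawn up with their changes on these arrays known, and their part in the changes of the CHX and CML genes was not tested. In whole inflorescences fewer cells of a type and less RNA per cell cannot be told apart.

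The mean log2 signal of the pollen list was 7.27, 7.19 and 7.28 in *top1α-2* and 9.50, 8.70 and 8.90 in the wild type (replicates 1, 2 and 3), so wild-type replicate 1 stood above the others. It was also the highest wild-type array for each of the 5 genes called lower. Of all 1334 probe sets called lower, 69.5% shared this. Without wild-type replicate 1, *CHX15*, *CHX19*, *CML23* and *CML42* kept their calls, with limma adjusted p values of 0.0293, 0.000969, 0.0382 and 0.00488, and *CHX6B* did not. Arrays of a genotype correlated at 0.978 to 0.985 within *top1α-2* and 0.955 to 0.977 within the wild type over the 11369 brighter probe sets, and at 0.887 to 0.938 between the genotypes.

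**Figure D4:**
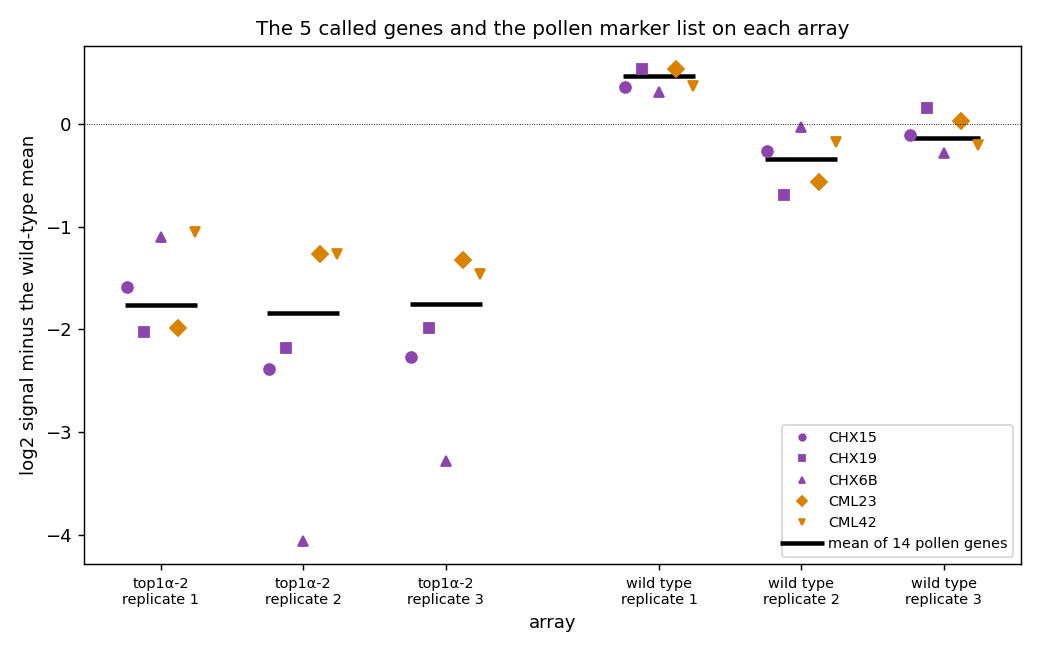
Log2 signal minus the wild-type mean (vertical axis) of the 5 genes called lower and of the pollen list, on each of the 6 arrays (horizontal axis, *top1α-2* on the left). Points are single genes, with CHX genes in purple and CML genes in orange, and black bars are the mean of 14 pollen genes. All 5 genes are above 0 on wild-type replicate 1 and below −1 on every *top1α-2* array, and *CHX6B* spreads most among the mutant arrays.

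Other genes of calcium signalling and ion transport were measured through 11 IQD genes, whose proteins bind calmodulin, and 3 VHA genes, of the vacuolar-type proton pump. Of the 11 IQD genes 1 was lower and 0 were higher, with a median log2 change of −0.14. Over all probe sets 5.86% were called lower and 3.4% higher, so these counts do not set the IQD genes apart. The gene that fell was *IQD19*, with means of 7.5 ± 0.04 on the *top1α-2* arrays and 8.80 ± 0.19 on the wild-type arrays (SD, n = 3 each). Its log2 change was −1.30 (limma adjusted p = 0.000389). The 3 VHA genes had log2 changes of −0.06 to −0.03, and none was called. *VHA-A3*, of a pump subunit in the vacuole membrane, had 10.93 ± 0.07 on *top1α-2* arrays and 10.96 ± 0.10 on wild-type arrays (SD, n = 3 each). No gene of potassium or anion channels, calmodulin or annexins matched the symbols searched, and none was analysed here. A list fixed as background named 39 genes of the families known from pollen or pollen tubes. None of the members called lower was on it. Of the listed genes, *CHX21* and *GLR1.4* were the 2 measured under the symbol rule. Neither was called, and *CHX21* was too dim to show a decrease. The listed *GLR1.2* was measured outside the rule as *ATGLR1.2* and was not called. The synonym *CML39* was given for both AT1G76640 and *CML37*, and neither was called.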

How the data were processed

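The deposited table holds a log2 signal per probe set and array, made by the authors with affy and MAS5, per the submitters' processing notes. Versions and filters are not stated there. On every array the unlogged signal had a mean of 500 without the 2% highest and 2% lowest probe sets. Of 22810 probe sets, 64 controls were set aside.

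The remaining 22746 were fitted with limma 3.58.1 in R 4.3.3, with genotype alone, eBayes with a trend on signal, and Benjamini-Hochberg adjustment over all of them. The fit was tested on simulated data. Differences are *top1α-2* minus wild type. Intervals are 95% intervals of the fit, and the number of arrays limits precision.

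Names came from the platform annotation, which names 1 gene for 13513 probe sets, several for 503 and none for 8730. By gene identifier 13436 matched the RefSeq gene table of TAIR10.1. The rule for naming genes took every called member, the brightest and the extreme member of each family and listed pollen genes; all 20 are described. Members and lists were chosen with earlier results of these data known.

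Same-numbered arrays deviated together only weakly. Their correlations, all positive, were 0.028, 0.001 and 0.021 over all probe sets, and 0.095, 0.089 and 0.208 over the brighter probe sets. No pairing is described for the replicates, and their numbers were not taken as pairs in the main fit. Alternatives were quantile normalization, median centring, a pseudocount of 16, a filter on dim probe sets, another variance prior, a replicate block, other matching rules and each array left out. No sequence was used here.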

Additional observations from a re-analysis of the deposited data

Results flagged for a closer look

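A signal in control probe sets outside the comparison differed between the genotypes. The 3′ minus 5′ log2 signal of an actin control, a sign of RNA quality, was 4.03 ± 0.07 on *top1α-2* arrays and 3.57 ± 0.19 on wild-type arrays (SD, n = 3 each), a difference of 0.46 without overlap. The 5 other such ratios, for another actin control and pairs for GAPDH and ubiquitin, overlapped. Its part in the changes of the CHX and CML genes was not tested.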

How the results depend on the processing

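Under every alternative run, 0 of the members were called higher. The count called lower was 5, and 4 to 5 with single arrays left out. It was 3 of 20 with a variance prior without a trend, where CML genes had 1 lower call. It was 3 of the 4 members left without the dimmest 50% of probe sets, where the median log2 change of the members was −0.96 and the only CML and GLR genes left, *CML42* and *GLR3.3*, had −1.26 and −0.10, with 1 lower call of CML genes. With synonyms also matched, the CML median was −0.51. With the replicate number as a block 6 members were lower, *CHX20* among them at a limma adjusted p of 0.0394, and with case ignored, an alternative chosen after seeing the data, also 6. After quantile normalization *CHX6B* lost its call, at a log2 change of −2.57 and an adjusted p of 0.0566, and without a trend in the prior at 0.135. *CHX15*, *CHX19* and *CML42* kept their calls under every alternative that tested them. Among genes not called, the sign of the log2 change turned with single arrays left out: *CHX16* ranged from −0.25 to 1.16, *CHX21* from −0.86 to 0.65, *CML38* from −0.16 to 1.64, *CML41* from −0.26 to 0.03 and *GLR2.8* from −0.14 to 0.56. *CML41* also turned after quantile normalization, at 0.005. The cause of these changes was not tested, other than that a filter leaves fewer genes. Signal over background limits the 5 dimmest genes, and also *CHX6B*, whose signals on *top1α-2* replicates 2 and 3 were 1.84 and 2.62.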
